A study of Mus musculus with 16 samples.

Results

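The genes described here encode the proteasome, its activators, its inhibitor and the chaperones that assemble it, read in mouse hippocampus on Affymetrix expression arrays. They were chosen by name: every probe set with a single gene symbol of Psma, Psmb, Psmc, Psmd, Psme, Psmf or Psmg followed by a digit, with the probe set of highest mean over the 16 arrays standing for its gene. The rule found 49 genes with 103 probe sets among 18193 genes with a single symbol. A probe set was tested where its log2 value exceeded 4 on at least 4 arrays, and 47 of the 49 genes had such a probe set, among 11465 genes tested. The remaining genes, Psma8 and Psmb11, are known as the testis-specific alpha subunit and the thymus-specific beta subunit. Psma8 read 2.48 to 2.75 and Psmb11 read 2.11 to 2.21 over all 16 arrays, below the filter everywhere. Psmc3ip and Psme3ip1 matched the name rule although they encode no proteasome subunit, and they are kept and marked. Psme2, the partner of Psme1, is not counted because its only probe set also names Psme2b.

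All mice were males of 12 months, each array carried RNA from the hippocampus of 1 mouse, and each of 4 groups had 4 arrays. AβPP antisense mice were SAMP8, the senescence-accelerated strain, given an intravenous oligonucleotide against the amyloid precursor protein. Random antisense mice were SAMP8 given an intravenous random oligonucleotide, and the SAMP8 group proper had no treatment. Control mice were untreated animals of a 50% backcross of SAMP8 with CD-1 mice, so they share part of the SAMP8 genome and differ from SAMP8 in background as a whole. The labels give memory deficits at this age for SAMP8 and none for Control. The title, source and description of Random antisense 1 place it with the random oligonucleotide, while its treatment field says that it had none.

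The proteasome is the barrel-shaped protease that degrades ubiquitin-tagged proteins in the cytosol and nucleus. Its 20S core stacks outer alpha rings, which gate the entry, on inner beta rings, which hold the active sites, and the 19S cap recognises, unfolds and threads in the substrate. Interferon signalling exchanges the active beta subunits for inducible ones, giving the immunoproteasome that is abundant in leukocytes. Loss of proteasome activity has been studied widely in the ageing brain and in disorders of protein aggregation.

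Promoters are shown for the 3 inducible catalytic subunits and Psme1, on which interferon signalling acts, and for 3 members, Psmb5, Psmb6 and Psmd12, picked because they hold a match to the element through which the stress-responsive factor Nrf1 acts. RefSeq promoters of GRCm38.p6, which run from 250 bases before to 50 bases after a gene's start, matched 41 of the 49 genes by symbol; Psma8, Psmb1, Psmb2, Psmb7, Psmc3, Psmd3, Psmd7 and Psmg2 had no entry used here. Psmb8 (chr17:34197945-34198244, plus strand), Psmb9 (chr17:34187281-34187580, minus strand), Psmb10 (chr8:105938343-105938642, minus strand) and Psme1 (chr14:55578244-55578543, plus strand) are inducible by interferon. Psmb5 (chr14:54617946-54618245, minus strand) and Psmb6 (chr11:70525107-70525406, plus strand) encode constitutive catalytic subunits, and Psmd12 (chr11:107479278-107479577, plus strand) encodes a subunit of the 19S lid. Capitals mark matches, on either strand, to the gamma-activated site TTCNNNGAA, the interferon-stimulated element core GAAANNGAA or the antioxidant response element core TGACNNNGC.
Psmb8: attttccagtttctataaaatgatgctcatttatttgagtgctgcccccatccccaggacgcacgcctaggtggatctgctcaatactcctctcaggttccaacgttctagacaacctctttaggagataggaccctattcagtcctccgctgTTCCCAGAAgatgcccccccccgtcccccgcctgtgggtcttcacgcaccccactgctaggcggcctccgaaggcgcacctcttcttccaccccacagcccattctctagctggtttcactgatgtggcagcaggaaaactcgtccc
Psmb9: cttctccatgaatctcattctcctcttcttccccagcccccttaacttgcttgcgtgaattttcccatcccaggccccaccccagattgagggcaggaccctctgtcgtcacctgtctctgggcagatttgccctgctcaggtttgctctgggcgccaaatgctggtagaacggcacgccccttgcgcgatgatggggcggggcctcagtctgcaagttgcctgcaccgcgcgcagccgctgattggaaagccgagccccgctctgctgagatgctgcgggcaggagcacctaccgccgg
Psmb10: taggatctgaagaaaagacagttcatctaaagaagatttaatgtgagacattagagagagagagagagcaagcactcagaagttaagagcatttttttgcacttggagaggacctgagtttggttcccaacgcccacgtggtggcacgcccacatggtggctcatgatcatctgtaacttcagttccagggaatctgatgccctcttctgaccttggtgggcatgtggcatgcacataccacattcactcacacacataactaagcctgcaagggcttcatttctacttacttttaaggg
Psme1: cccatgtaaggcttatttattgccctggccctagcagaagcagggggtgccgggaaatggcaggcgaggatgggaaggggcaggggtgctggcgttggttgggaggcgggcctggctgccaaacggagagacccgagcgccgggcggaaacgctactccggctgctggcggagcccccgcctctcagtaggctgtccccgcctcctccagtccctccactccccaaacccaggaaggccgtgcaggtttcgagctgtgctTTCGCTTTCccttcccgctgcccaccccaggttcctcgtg
Psmb5: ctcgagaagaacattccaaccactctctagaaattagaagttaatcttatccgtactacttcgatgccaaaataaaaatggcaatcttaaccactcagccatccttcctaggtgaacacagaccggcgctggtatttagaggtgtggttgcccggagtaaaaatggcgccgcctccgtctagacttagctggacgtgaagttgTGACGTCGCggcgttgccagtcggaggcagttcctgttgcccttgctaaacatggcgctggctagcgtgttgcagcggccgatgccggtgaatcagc
Psmb6: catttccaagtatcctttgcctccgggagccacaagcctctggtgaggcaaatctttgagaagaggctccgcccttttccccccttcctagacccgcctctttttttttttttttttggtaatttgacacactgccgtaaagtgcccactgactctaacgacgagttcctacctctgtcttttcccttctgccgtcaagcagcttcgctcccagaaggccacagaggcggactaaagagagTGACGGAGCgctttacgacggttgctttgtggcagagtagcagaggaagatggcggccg
Psmd12: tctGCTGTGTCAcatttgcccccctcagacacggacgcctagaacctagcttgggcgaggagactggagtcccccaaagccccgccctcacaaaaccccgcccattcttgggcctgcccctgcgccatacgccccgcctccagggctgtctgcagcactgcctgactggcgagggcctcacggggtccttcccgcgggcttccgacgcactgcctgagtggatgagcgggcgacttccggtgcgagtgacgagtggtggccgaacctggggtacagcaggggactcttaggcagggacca

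The Psmb8 promoter held 1 gamma-activated match and that of Psme1 held 1 interferon-stimulated match on the reverse strand. The Psmb9 and Psmb10 promoters held 0 matches to any of the 3 motifs. Psmb5, Psmb6 and Psmd12 each held 1 antioxidant match. Over the 41 promoters, the antioxidant core was present in 6, or 14.6%, against 12.5% of all 27025 promoters of the same length. The interferon-stimulated core was present in 14.6% of members against 8.6% of all promoters, and the gamma-activated site in 7.3% against 8.5%. The GC box GGGCGG was present in 53.7% of members against 35.9% of all promoters, the CCAAT box in 36.6% against 37.9%, and the heat shock element GAANNTTC in 7.3% against 8.0%. Both strands were searched and overlapping matches of different motifs were each counted. These are counts of letters, with no test, and they show no binding.

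Of the listed markers, 9 of 10 for hippocampal neurons, 7 of 7 for astrocytes and 6 of 7 for oligodendrocytes had a tested probe set. So did 9 of 10 for microglia and 8 of 10 for choroid plexus, so passing the filter does not check the dissection. Summed hippocampal neuron markers were 65.2 on AβPP antisense 2, against 73.37 to 83.64 on the other 15 arrays. Pairwise, the arrays correlated closely except on AβPP antisense 4 and Control 4, whose median correlations with the other arrays were 0.905 and 0.922. AβPP antisense 4 had a beta-actin 3′ minus 5′ signal of 3.89 log2, against 0.84 to 1.60 on the other 15 arrays, a difference that grows as RNA is degraded. Control 4 had a summed log2 value over 7 leukocyte markers of 87.2, against 47.76 to 56.77 on the other arrays. Summed choroid plexus markers were 43.26 to 56.00 on AβPP antisense arrays, against 60.64 to 70.06 on Random antisense, 64.42 to 73.25 on SAMP8 and 58.74 to 67.78 on Control arrays. How far these differences between dissections or RNA enter the proteasome values was not tested. In bulk tissue, fewer cells of a type and less RNA per cell cannot be told apart.

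Across the 4 comparisons, 0 of the 47 proteasome genes and 0 of their 80 tested probe sets passed an adjusted p of 0.05 in limma with Benjamini-Hochberg adjustment over all 23905 probe sets. The moderated F test over the 4 groups also called 0 members, against 0.419% of all genes. By the brightest probe sets the smallest adjusted F p of a member was 0.244, for Psmb1, and a dimmer Psmd4 probe set had 0.232. By that test 8 of the 47 members had an unadjusted p under 0.05, against 10.4% of all genes. The median standard error of a member's difference was 0.16 log2, from 0.09 to 1.02. The plot of members by array places the widest departures on AβPP antisense 4 and Control 4.

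**Figure D1:**
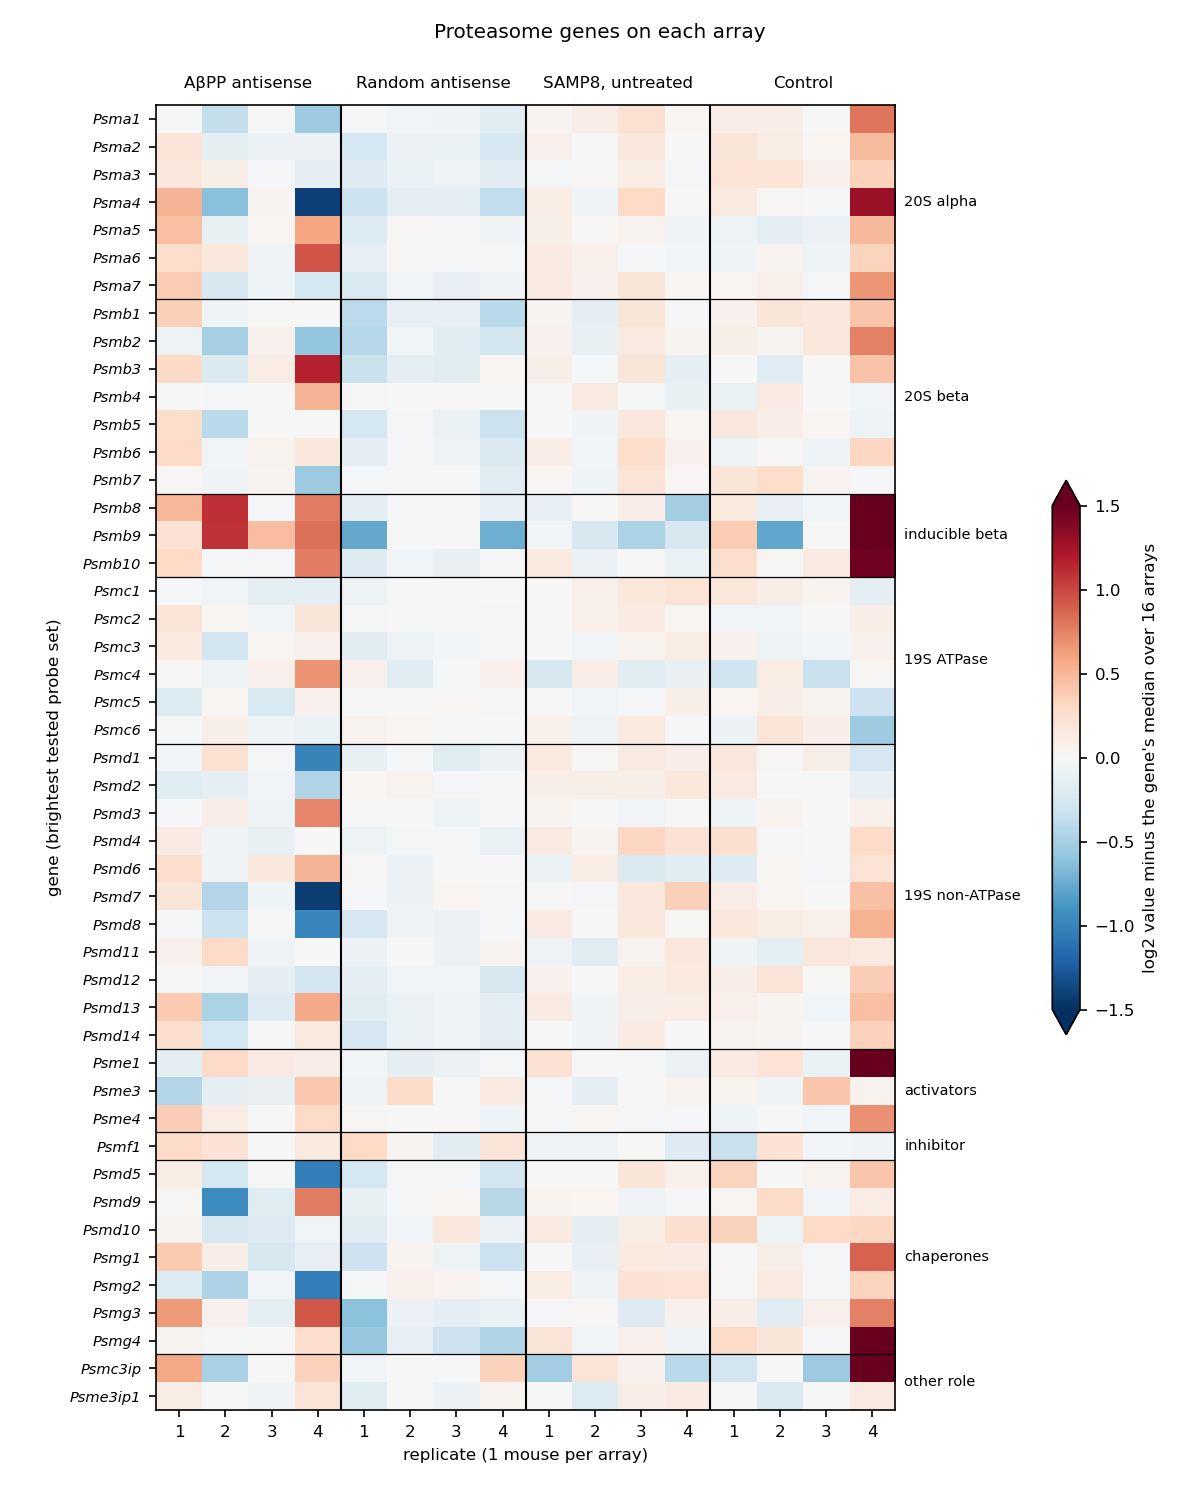
Each row is 1 of the 47 tested proteasome genes, ordered by role, and each column is 1 of the 16 arrays in 4 groups. Colour gives the log2 value minus the gene's median over the 16 arrays, and the scale ends at 1.5, which Psmb8, Psmb9, Psme1, Psmg4 and Psmc3ip exceed on Control 4.

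The inducible catalytic subunits Psmb8 and Psmb9 had the widest range of the members over the 16 arrays, and on 1 array above all. Psmb8 is the inducible β5 subunit, with chymotrypsin-like activity. It read 6.13, 6.72, 5.61 and 6.40 on AβPP antisense arrays, 5.49, 5.60, 5.64 and 5.50 on Random antisense arrays, 5.50, 5.64, 5.72 and 5.10 on SAMP8 arrays, and 5.77, 5.50, 5.59 and 11.85 on Control arrays. Control 4 thus lay 6.23 log2, or 74.9-fold, above the mean of the other 3 Control arrays, which were in the range of the untreated SAMP8 arrays or just above it.

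Psmb9, the inducible β1 subunit, read 4.57, 5.45, 4.83 and 5.18 on AβPP antisense arrays, 3.60, 4.36, 4.37 and 3.63 on Random antisense arrays, 4.32, 4.13, 3.89 and 4.12 on SAMP8 arrays, and 4.74, 3.59, 4.36 and 10.21 on Control arrays. Control 4 was the highest array by far, and no fold is given because the values of this gene on the other 15 arrays, 3.59 to 5.45, lay at or near the filter level. Psmb10, the inducible β2 subunit with trypsin-like activity, read 9.36, 9.03, 9.04 and 9.84 on AβPP antisense arrays, 8.87, 9.02, 8.95 and 9.05 on Random antisense arrays, 9.21, 8.98, 9.08 and 8.96 on SAMP8 arrays, and 9.32, 9.08, 9.18 and 10.52 on Control arrays. Its highest values were on Control 4, by 2.51-fold over the other 3 Control arrays, and on AβPP antisense 4.

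The constitutive subunits that these replace did not share the high values. Psmb5, the constitutive β5 subunit, read 11.57, 10.91, 11.32 and 11.30 on AβPP antisense arrays, 11.04, 11.28, 11.21 and 10.98 on Random antisense arrays, 11.32, 11.26, 11.47 and 11.34 on SAMP8 arrays, and 11.47, 11.41, 11.34 and 11.23 on Control arrays. Psmb6, the constitutive β1 subunit with caspase-like activity, spanned 11.54 to 11.87 on AβPP antisense, 11.36 to 11.57 on Random antisense, 11.55 to 11.85 on SAMP8 and 11.50 to 11.90 on Control arrays. Psmb7, the constitutive β2 subunit, spanned 11.67 to 12.26 on AβPP antisense, 12.04 to 12.21 on Random antisense, 12.16 to 12.43 on SAMP8 and 12.19 to 12.48 on Control arrays. On Control 4, Psmb5 and Psmb7 were the lowest of their group, by 0.17 and 0.19 log2 against the mean of the others, and Psmb6 was the highest, by 0.36 log2.

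**Figure D2:**
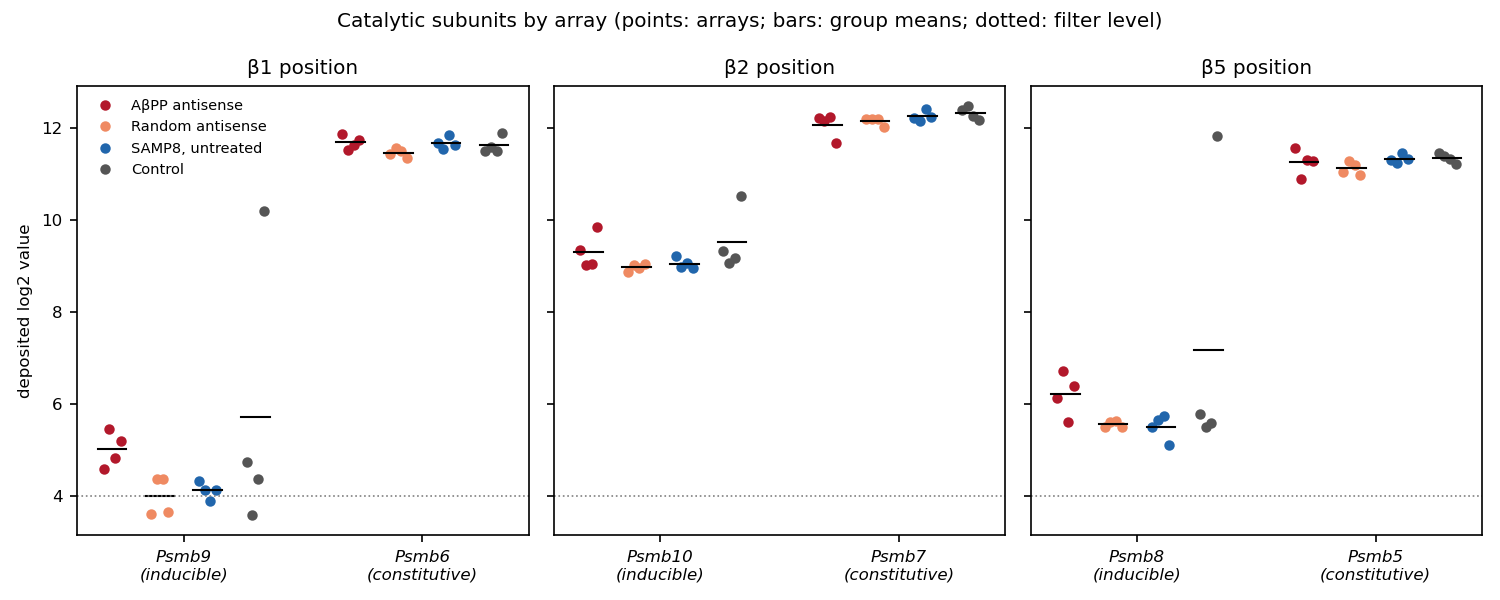
Points are the deposited log2 values of single arrays, bars are means of the 4 arrays of a group, and the dotted line is the filter level of 4. In each panel the inducible subunit is left of the constitutive subunit whose place it takes; Psmb8 and Psmb9 stand at 11.85 and 10.21 on Control 4 and at 3.59 to 6.72 elsewhere.

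Psme1, a subunit of the PA28 activator that interferon induces, moved in the same way on Control 4. It read 9.51, 9.93, 9.76 and 9.74 on AβPP antisense arrays, 9.59, 9.50, 9.55 and 9.61 on Random antisense arrays, 9.85, 9.64, 9.64 and 9.55 on SAMP8 arrays, and 9.76, 9.84, 9.54 and 11.67 on Control arrays. The probe set that names both Psme2b and Psme2 read 11.57 on Control 4, against at most 9.49 on the other 15 arrays. The median deviation of the interferon-induced members on Control 4 was 3.94 log2, and over all members it was 0.35 log2, against −0.16 log2 over all genes. Beside the leukocyte sum given above, 9 measured genes of interferon signalling and antigen processing summed to 85.6 on Control 4, against 60.62 to 62.85 on the other 3 Control arrays, and 9 microglia markers summed to 83.66, against 72.89 to 79.44. Their part in the proteasome values was not tested.

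Control 4 lay above the other 3 Control arrays in 32 of the 47 members and below them in 7, against 29.5% and 52.2% of all genes. In the alpha ring, Psma4 read 12.28 on Control 4 and 10.98 to 11.13 on the others, and Psma1 read 12.42 on Control 4 and 11.62 to 11.71 on the others. Among chaperones of core assembly, Psmg4 read 6.14 on Control 4 and 4.53 to 4.84 on the others, and Psmg1 read 9.59 on Control 4 and 8.69 to 8.79 on the others. The ATPase Psmc6 went the other way, with 10.75 on Control 4 against 11.21 to 11.48. Psmc3ip, a recombination factor that matches the rule only by name, read 7.36 on Control 4 against 4.80 to 5.35.

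SAMP8 against Control asks how the senescence-accelerated strain differs from its backcross. No proteasome gene was called in this comparison, against 0.227% of all genes, and the smallest adjusted p of a tested gene in the set was 0.999. Over all tested probe sets of these genes it was 0.819. At an unadjusted p under 0.05 there were 0 members, against 3.77% of all genes. The count of members without overlap between the groups was 0 in each direction, against 2.99% of genes higher and 1.53% lower in SAMP8. The median difference of the members, SAMP8 minus Control, was −0.08 log2, against 0.04 over all genes, with 34 members negative and 13 positive. Without Control 4 the median was −0.00 and 25 members were negative, so most of the negative median rested on that array.

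By role, the 7 alpha-ring genes all had negative differences in SAMP8 minus Control, from −0.27 for Psma4 to −0.02, and the 6 ATPases all had positive ones, from 0.02 to 0.12 for Psmc6. This split by role rested on Control 4: without it 5 of the 7 alpha-ring genes were positive, with Psma4 at 0.04, and 2 of the 6 ATPases were negative, with Psmc6 at −0.03. The largest differences were those of the inducible subunits, −1.68 ± 1.02 (SE) for Psmb8, −1.61 ± 0.99 for Psmb9 and −0.47 ± 0.26 for Psmb10, and of Psme1, −0.53 ± 0.33. Without Control 4 the differences were −0.13 for Psmb8, −0.11 for Psmb9, −0.14 for Psmb10 and −0.04 for Psme1. Among constitutive beta subunits the largest difference was −0.23 for Psmb2, among 19S non-ATPases −0.14 for Psmd8, and among chaperones −0.46 for Psmg4. Without Control 4 these were −0.06 for Psmb2, −0.03 for Psmd8 and −0.10 for Psmg4. The inhibitor Psmf1 differed by −0.02. None of these passed the test.

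Random antisense against SAMP8 sets mice given an intravenous oligonucleotide, without the precursor as its target, beside untreated mice of the same strain. No group had an injection alone, so the oligonucleotide and the injection cannot be told apart. It gave the most even shift of the set: 40 of 47 proteasome genes had a negative difference, Random antisense minus SAMP8, and 7 a positive one, whereas 53.4% of all genes were negative. The median was −0.12 log2, with quartiles of −0.20 and −0.04, against −0.01 over all genes. No member was called, against 0.0% of all genes, and the adjusted p of the members was 1. At an unadjusted p under 0.05 there were 2 members, Psmd4 and Psmb1, against 1.04% of all genes.

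In 12 of the 47 members, or 25.5%, all 4 Random antisense arrays lay below all 4 SAMP8 arrays, against 4.86% of all genes; in the other direction there were 0 members, against 4.21% of all genes. The 12 were Psma1, Psma2, Psma3, Psma4 and Psma7 of the alpha ring, Psmd1, Psmd2, Psmd4, Psmd8 and Psmd12 of the 19S cap, and the assembly chaperones Psmd5 and Psmg4. Among these, a further tested probe set of Psma7 also had no overlap, at −0.33. The further tested probe sets of Psmd4 (−0.17), Psma3 (0.26) and Psma1 (−0.05, 0.06 and 0.08) overlapped between the groups. Psmd4, a ubiquitin receptor of the cap, read 11.44, 11.48, 11.49 and 11.41 on Random antisense arrays, against 11.65, 11.56, 11.82 and 11.73 on SAMP8 arrays. The gap between the closest arrays of the groups was small beside the spread within SAMP8, and the difference was −0.23 ± 0.10 (SE). Psma2, an alpha-ring subunit, read 11.58, 11.76, 11.75 and 11.60 on Random antisense arrays, against 11.93, 11.85, 12.01 and 11.85 on SAMP8 arrays. Its difference was −0.24 ± 0.12. Psmd12, whose promoter is printed above, read 10.97, 11.06, 11.07 and 10.87 on Random antisense arrays, against 11.17, 11.11, 11.22 and 11.25 on SAMP8 arrays.

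Psma4 had the largest difference in the alpha ring, −0.33 log2, with 10.67, 10.85, 10.84 and 10.62 on Random antisense arrays, against 11.10, 10.93, 11.28 and 11.00 on SAMP8 arrays. Psmg4, a chaperone of core assembly with low signal, read 3.99, 4.43, 4.24 and 4.10 on Random antisense arrays, against 4.74, 4.51, 4.63 and 4.50 on SAMP8 arrays, a difference of −0.41 ± 0.26. In both genes the groups were apart, and Random antisense 1 or 4 gave the lowest values. The 7 alpha subunits and the 7 assembly chaperones all had negative differences, with medians of −0.18 and −0.20, as did 6 of 7 constitutive beta subunits, with a median of −0.21, and 10 of 11 19S non-ATPases, with a median of −0.15. By their brightest probe sets the 6 ATPases differed less, with a median of −0.04 and Psmc1 at −0.13. This depended on the probe set: the brightest gave −0.07 for Psmc2, 0.09 for Psmc4 and −0.02 for Psmc6. Their further tested probe sets gave −0.19 for Psmc2, −0.18 for Psmc4, and −0.21 and −0.09 for Psmc6. Groups did not overlap for that of Psmc4 and for the Psmc6 probe set at −0.21. The inducible Psmb9 differed by −0.12 and the nuclear activator Psme3 by 0.11. The largest positive differences were 0.24 for Psmc3ip and 0.17 for Psmf1, which inhibits the proteasome. The other 2 tested probe sets of Psmf1 differed by −0.13 and −0.09 in this comparison.

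**Figure D3:**
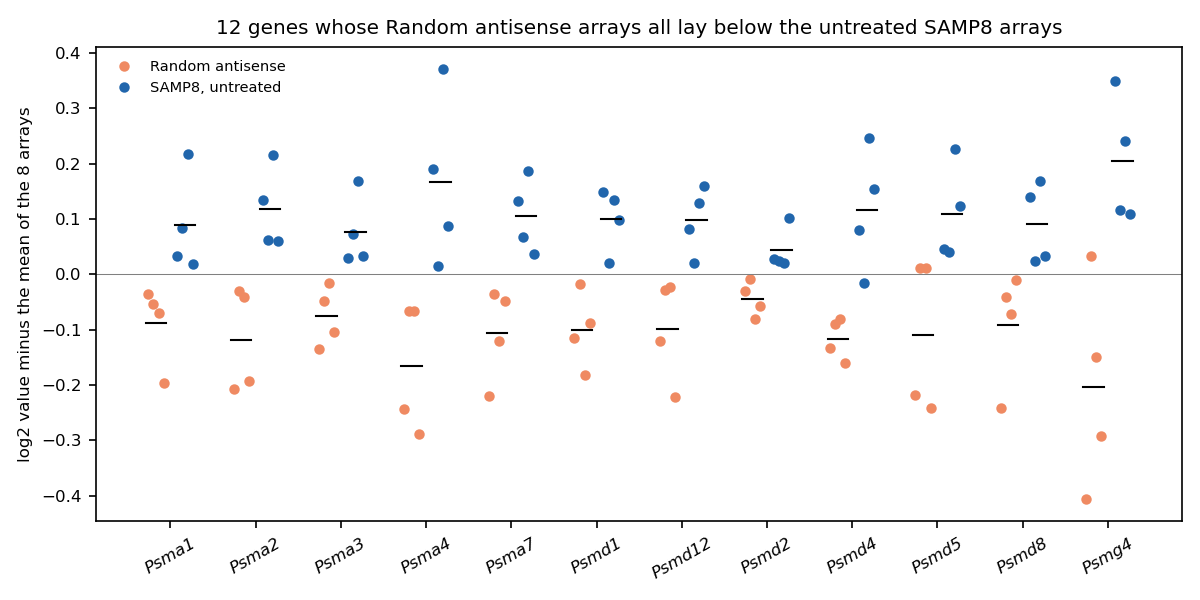
The 12 proteasome genes whose Random antisense arrays all lay below the SAMP8 arrays, with each point the log2 value of 1 array minus the gene's mean over the 8 arrays and bars the group means. The genes were picked for this separation, which fixes the gap that is seen, and each difference of means is under 0.5 log2.

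The per-array medians of all members, as deviations from each gene's median, were −0.13, −0.03, −0.04 and −0.06 on Random antisense arrays, against 0.04, −0.00, 0.11 and 0.02 on SAMP8 arrays, and the groups did not overlap. Random antisense 1, the array with the conflicting treatment field, was the lowest. When it was left out the count without overlap was 12, against 6.59% of all genes, and over the 8 ways to leave out 1 array the count was 12 to 20, against 5.72% to 9.66%; the highest was without SAMP8 2. When Random antisense 1 was counted as an untreated SAMP8 mouse the count was 1, against 2.74% of all genes, and the median was −0.06. Centring each array on its median gave 17, against 4.64%, and repeated quantile normalization gave 15, against 4.35%.

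AβPP antisense against Random antisense sets the oligonucleotide against the precursor beside an oligonucleotide control. The median difference of the members was 0.11 log2, against 0.04 over all genes, and 31 of 47 were positive. No member was called, against 0.0262% of all genes, and the smallest adjusted p was 0.322, or 0.244 over all tested probe sets of the members. At an unadjusted p under 0.05 there were 5 members, against 8.84% of all genes; Psmg2 and Psmd2 were lower and Psmb1, Psmg3 and Psma6 higher. Groups did not overlap for Psmb1, Psmb9 and Psmg4, which were higher, against 4.69% of all genes, and for Psmd2 and Psmg2, which were lower, against 2.26%.

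Psmb1, a non-catalytic beta subunit, read 12.13, 11.70, 11.76 and 11.77 on AβPP antisense arrays, against 11.38, 11.64, 11.64 and 11.36 on Random antisense arrays. The groups were apart by little at their closest arrays, and the difference was 0.33 ± 0.13 (SE, adjusted p = 0.322). Psmg2, a chaperone of alpha-ring assembly, read 9.29, 9.03, 9.45 and 8.45 on AβPP antisense arrays, against 9.46, 9.56, 9.55 and 9.46 on Random antisense arrays. AβPP antisense 4 was the lowest and AβPP antisense 3 almost reached the other group; the difference was −0.45 ± 0.17 (adjusted p = 0.322). A further probe set of Psmg2 read 9.23 to 9.51 on AβPP antisense arrays and 9.29 to 9.34 on Random antisense arrays and differed by 0.06.

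Psmd2, a large scaffold subunit of the 19S base, read 11.31, 11.35, 11.45 and 11.04 on AβPP antisense arrays, against 11.52, 11.54, 11.47 and 11.49 on Random antisense arrays. The groups were apart by little, and the difference was −0.22 ± 0.10 (adjusted p = 0.405). Psmg4 read 4.59, 4.53, 4.57 and 4.81 on AβPP antisense arrays, against the 3.99 to 4.43 of the Random antisense arrays given above, a difference of 0.44 ± 0.26. Psmg3, the partner of Psmg4 in core assembly, had the larger difference of 0.61 ± 0.23 and read 7.74, 7.17, 6.97 and 8.03 on AβPP antisense arrays, against 6.49, 7.01, 6.97 and 7.01 on Random antisense arrays. The Psmg3 groups overlapped, and AβPP antisense 1 and 4 were high.

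The inducible subunits Psmb9 and Psmb8 had the largest positive differences in AβPP antisense minus Random antisense. Psmb9 differed by 1.02 ± 0.99, with no overlap between the values given above and an exact two-sided permutation p of 0.0286, the smallest that 4 arrays against 4 allow and unadjusted for 188 comparisons. Its standard error shares the spread of Control 4. With Control 4 left out of the fit, the difference was the same with a standard error of 0.27 and an adjusted p of 0.12. Psmb8 differed by 0.66, with a standard error of 1.02 with Control 4 and 0.20 without it, where the adjusted p was 0.157, and Psmb10 by 0.35 ± 0.26, or 0.17 without AβPP antisense 4. Beside these, summed leukocyte markers were 54.18 to 56.77 on AβPP antisense arrays, against 49.16 to 52.80 on Random antisense arrays, and interferon and antigen processing genes 62.01 to 67.42, against 60.32 to 62.53. The 9 microglia markers summed to 80.60 to 82.66 on AβPP antisense 1, 2 and 3 and were lowest on AβPP antisense 4, against 75.18 to 78.74 on Random antisense arrays, and 7 of them had positive differences. The 2 measured of 6 listed blood markers summed to 10.21, 17.78, 8.88 and 12.44 on AβPP antisense arrays, against 7.76 to 8.40 on Random antisense arrays. Blood markers, interferon and antigen processing genes, Psmb8 and Psmb9 were each highest of their group on AβPP antisense 2. On SAMP8 4 the blood markers summed to 13.79, while Psmb8 read 5.10, its lowest value of the 16 arrays, and Psmb9 read 4.12. The part of these cell markers and interferon genes in the differences was not tested.

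Among other roles, the largest differences in AβPP antisense minus Random antisense were 0.37 for the alpha subunit Psma6, 0.48 for the beta subunit Psmb3, 0.19 for the ATPase Psmc4, −0.41 for the lid subunit Psmd7, 0.20 for the nuclear activator Psme4, 0.07 for the inhibitor Psmf1 and 0.12 for Psme3ip1, which matches only by name. Psmb3 read 11.49, 10.99, 11.31 and 12.35 on AβPP antisense arrays, against 10.87, 11.07, 11.05 and 11.23 on Random antisense arrays. Psmd7 read 10.91, 10.28, 10.65 and 9.30 on AβPP antisense arrays, against 10.71, 10.63, 10.75 and 10.69 on Random antisense arrays. In both, AβPP antisense 4 held the extreme value and the groups overlapped. Without that array the differences were 0.16 for Psma6, 0.21 for Psmb3, 0.02 for Psmc4, −0.08 for Psmd7 and 0.08 for Psme3ip1. With all arrays, further tested probe sets of these genes differed by 0.00 and 0.18 for Psma6, −0.03 for Psmb3 and −0.00 for Psmc4. Those of Psmd7 and Psmf1 differed by 0.02 for Psmd7, and by −0.07 and −0.12 for Psmf1.

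**Figure D4:**
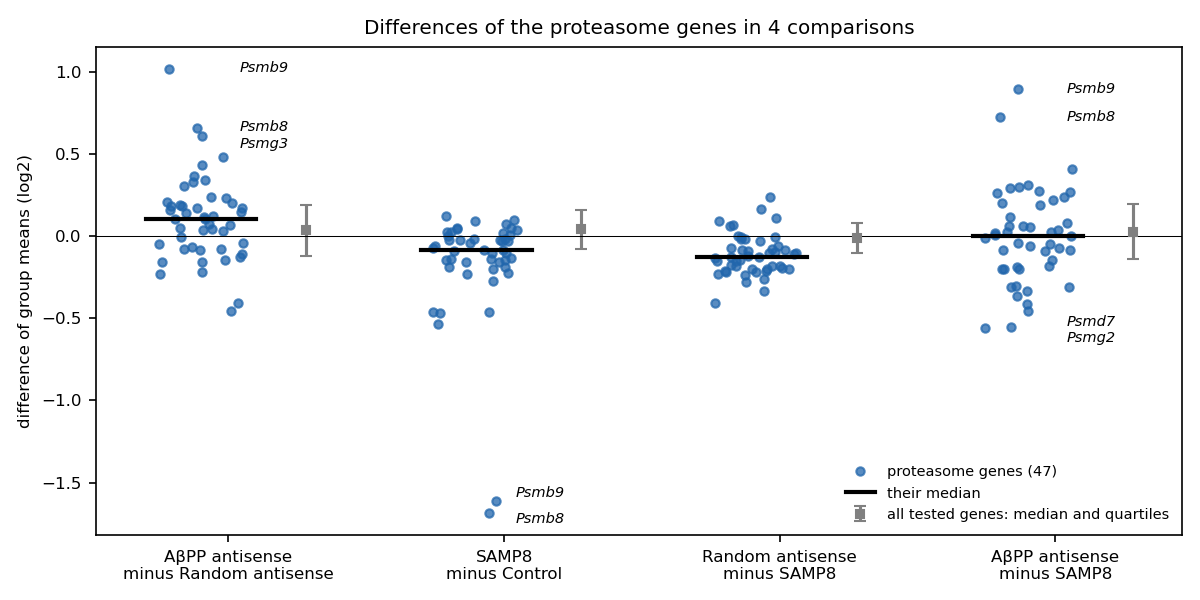
Each blue point is the difference of group means, in log2, of 1 of 47 proteasome genes in the comparison named below it, and the black bar is their median. The grey square and bars are the median and quartiles of all 11465 tested genes; the members' median is −0.12 in Random antisense minus SAMP8 and 0.00 in AβPP antisense minus SAMP8.

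AβPP antisense against SAMP8, which shares its arrays with the previous comparisons, gave a median of 0.00 log2 over the members, against 0.03 over all genes, with 23 negative and 24 positive. No member was called, against 0.0959% of all genes, and the smallest adjusted p was 0.176, for Psmg2. A dimmer tested probe set of Psmd4 had 0.171, with a difference of −0.34 ± 0.10 and no overlap. The brightest Psmd4 probe set differed by −0.19 and overlapped. At an unadjusted p under 0.05 there were 5 members, against 10.0% of all genes: Psmg2 at −0.55 ± 0.17, Psmd2 at −0.31 ± 0.10, Psmd8 at −0.41 ± 0.18, Psmd7 at −0.56 ± 0.25 and Psmd6 at 0.31 ± 0.13. Groups did not overlap for Psmb9 and Psmf1, which were higher, against 4.05% of all genes, and for Psma1, Psmc1, Psmd2, Psmd8 and Psmd12, which were lower, against 2.88%. Further tested probe sets differed by −0.12 for Psmd6, 0.04 for Psmd7, and −0.05, 0.30 and 0.32 for Psma1.

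Psmf1 read 8.79, 8.72, 8.51 and 8.65 on AβPP antisense arrays, against 8.46, 8.45, 8.49 and 8.31 on SAMP8 arrays. These groups were apart by little, and the difference was 0.24 ± 0.13. The other 2 tested probe sets of Psmf1 went the other way, at −0.20 ± 0.24 and −0.21 ± 0.10. The Psmg2 values given above lay at 8.45 to 9.45 on AβPP antisense arrays, against 9.43 to 9.70 on SAMP8 arrays, so that 1 pair of arrays crossed. With AβPP antisense 3 left out, its difference was −0.69 with an adjusted p of 0.0319. This was the only call of a member in any setting that was run. In that setting 1286 of all 23905 tested probe sets were called in this comparison, against 69 with all arrays. With AβPP antisense 4 left out, the Psmg2 difference was −0.35 with an adjusted p of 0.225. The further Psmg2 probe set differed by −0.02. By role the remaining largest differences were −0.46 for Psma4, −0.31 for Psmb2, 0.28 for Psmc4, 0.20 for Psme4 and 0.27 for Psmc3ip. The further Psmc4 probe set differed by −0.18. Without AβPP antisense 4, Psma4 was −0.11, Psmc4 0.11, Psmd7 −0.23 and Psmd8 −0.20. Psmb9 differed by 0.89 ± 0.99 and Psmb8 by 0.72 ± 1.02, and with Control 4 left out of the fit their adjusted p values were 0.123 and 0.108.

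The median SD of the members was 0.27 log2 in AβPP antisense, 0.08 in Random antisense, 0.10 in SAMP8 and 0.20 in Control, and over all genes it was 0.34, 0.11, 0.11 and 0.28. Psma4 was the widest member in AβPP antisense, at 11.49, 10.36, 11.03 and 9.59. On AβPP antisense 4, 22 members departed from their 16-array median by more than 0.5 log2, 13 upward and 9 downward, against 40.9% of all genes. On Control 4 there were 15, against 43.0% of all genes, and on the remaining arrays 0 to 4. Without AβPP antisense 4, 9 members changed sign in AβPP antisense minus Random antisense, and their median was 0.08.

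**Figure D5:**
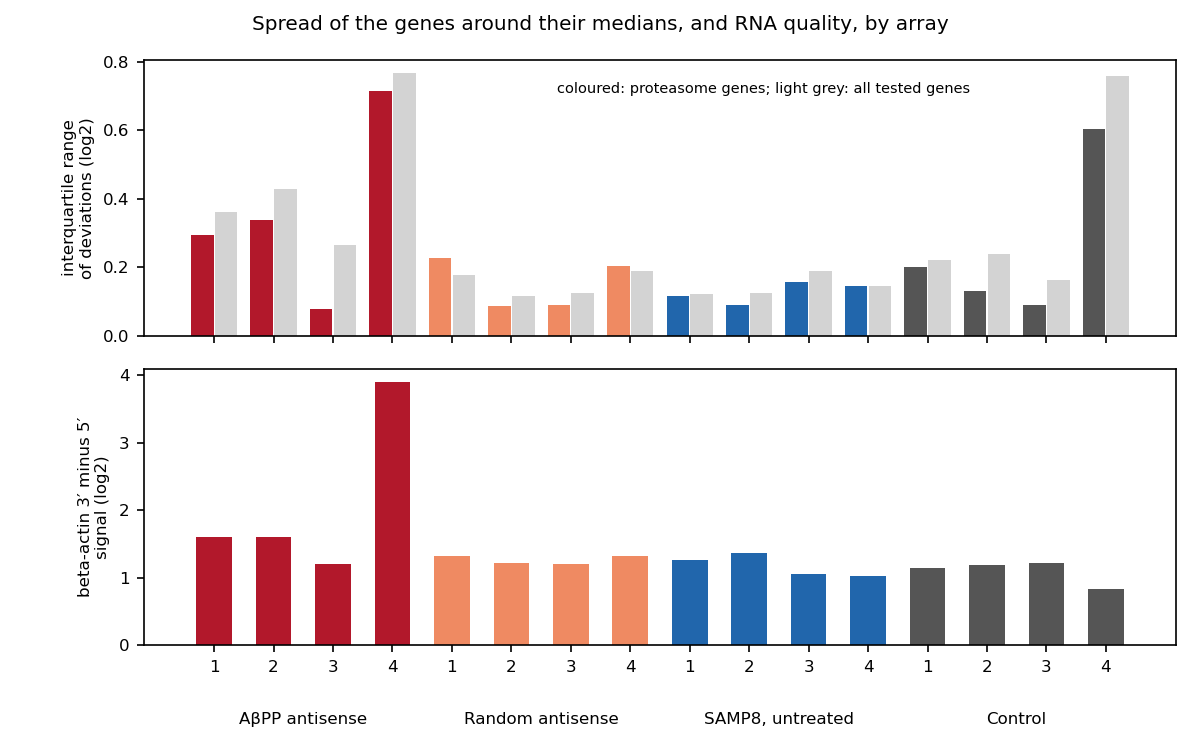
The upper panel gives, for each array, the interquartile range of deviations from the 16-array median over the 47 proteasome genes and over all tested genes, in log2. The lower panel gives the beta-actin 3′ minus 5′ signal; AβPP antisense 4 has ranges of 0.71 and 0.77 and a signal of 3.89, while Control 4 has ranges of 0.60 and 0.76 and a signal of 0.84.

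Probe sets of the same gene often differed in sign. Of 21 members with more than 1 tested probe set, all probe sets had the same sign in 8 for AβPP antisense minus Random antisense, 9 for SAMP8 minus Control, 10 for Random antisense minus SAMP8 and 8 for AβPP antisense minus SAMP8. Psma3 and Psme4 had probe sets that differed by more than 1 log2. The brighter Psma3 probe set differed by 0.16 in AβPP antisense minus Random antisense. The dimmer one read 5.24, 7.23, 6.91 and 7.53 on AβPP antisense arrays, against 8.03, 7.64, 7.91 and 7.74 on Random antisense arrays, a difference of −1.10 ± 0.35 (adjusted p = 0.244). For Psme4, 1 of 6 tested probe sets read 7.52, 6.97, 6.92 and 3.29 on AβPP antisense arrays, against 7.03 to 7.12 on Random antisense arrays, and differed by −0.91, while the other 5 probe sets differed by −0.05 to 0.26. The low value of this Psme4 probe set was on AβPP antisense 4, while that of the dimmer Psma3 probe set was on AβPP antisense 1.

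Genes that work with the proteasome were described from 5 lists of 51 genes, of which 37 had a tested probe set. None of the 37 was called in any of the 4 comparisons. Of 10 measured partners of the 26S particle, 7 had negative differences in AβPP antisense minus Random antisense, with a median of −0.08, and without AβPP antisense 4 it was 5. Fbxo7, which binds Psmf1, read 8.54, 8.44, 7.82 and 8.66 on AβPP antisense arrays, against 7.89, 7.94, 7.98 and 7.76 on Random antisense arrays, and differed by 0.47 ± 0.15 (adjusted p = 0.244). Zfand5, which stimulates the 26S proteasome, read 12.19, 11.90, 12.49 and 11.35 on AβPP antisense arrays, against 12.49, 12.56, 12.54 and 12.36 on Random antisense arrays, and differed by −0.51 ± 0.18 (adjusted p = 0.306). Both groups of values overlapped in 1 array, AβPP antisense 3, and without AβPP antisense 4 the Zfand5 difference was −0.29.

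The deubiquitinase Usp14 differed by −0.52 ± 0.24 and Zfand5 by −0.52 ± 0.18 in AβPP antisense minus SAMP8. Without AβPP antisense 4 these were −0.19 for Usp14 and −0.31 for Zfand5. In SAMP8 minus Control the partners of smallest p were Ecpas at −0.26 and Uchl5 at −0.14, and in Random antisense minus SAMP8 they were Pomp, the core maturation factor, at −0.17 and Fbxo7 at −0.23. Among 9 measured shuttle factors and unfoldase subunits, Rad23b differed by −0.42 and Ubqln1 by −0.21 in AβPP antisense minus Random antisense, Ubqln4 by 0.69 and Ubqln1 by −0.23 in AβPP antisense minus SAMP8, Ubqln4 by 0.33 and Ubqln2 by 0.08 in SAMP8 minus Control, and Rad23b by 0.31 and Ubqln4 by 0.24 in Random antisense minus SAMP8. Single arrays carried part of these: Ubqln4 was 0.42 in AβPP antisense minus SAMP8 without AβPP antisense 4, Ubqln4 was 0.13 and Ubqln2 −0.06 in SAMP8 minus Control without Control 4, and Rad23b was 0.17 in Random antisense minus SAMP8 without Random antisense 1. Of ubiquitin and the activating enzymes only Uba6 was measured among 6 listed genes, and it differed by 0.18 in AβPP antisense minus Random antisense, −0.08 in SAMP8 minus Control, 0.12 in Random antisense minus SAMP8 and 0.30 in AβPP antisense minus SAMP8.

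Of 8 measured regulators of proteasome transcription, 7 had positive differences in AβPP antisense minus Random antisense, with Nfyc, a subunit of the CCAAT-binding factor, at 0.33 and Foxo4 at 0.30. In AβPP antisense minus SAMP8 the same pair had the smallest p, at 0.27 and 0.34. Foxo4 read 7.06 on AβPP antisense 4 and 5.93 to 6.32 on the other 3 AβPP antisense arrays, against 5.99 to 6.09 on Random antisense arrays, and without AβPP antisense 4 its differences were 0.06 against Random antisense and 0.10 against SAMP8. Nfe2l1, which encodes Nrf1, read 9.89, 10.10, 9.39 and 9.87 on AβPP antisense arrays, against 9.65, 9.57, 9.52 and 9.57 on Random antisense arrays. AβPP antisense 3 was below the other group and the rest above it, and the difference was 0.23 (adjusted p = 0.583). Ngly1 at −0.26 and Stat3 at −0.39 had the smallest p in SAMP8 minus Control, and Nfyc and Ngly1, each at −0.07, in Random antisense minus SAMP8. Stat3 read 9.51 to 9.92 on SAMP8 arrays, against 9.66, 9.52, 9.69 and 11.34 on Control arrays, and its difference was 0.04 without Control 4.

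Of 9 measured genes of interferon signalling and antigen processing, 8 had negative differences in SAMP8 minus Control. Without Control 4, 3 had negative differences, with H2-K1 among them and Ifit3 at −0.04, while Irf1 was 0.10, Irf9 0.27 and Tap2 0.25. The class I genes H2-K1 and H2-D1, which lie in the same histocompatibility region as Psmb8 and Psmb9, differed among the Control mice themselves. H2-K1 read 4.56 to 4.73 on SAMP8 arrays, against 4.52, 9.71, 9.99 and 5.54 on Control arrays, and its difference was −2.79 ± 0.90 (adjusted p = 0.612). H2-D1 read 8.10 to 8.38 on SAMP8 arrays, against 8.66, 3.62, 4.22 and 12.62 on Control arrays. Control 2 and 3 were high for the first and low for the second, and Psmb8 read 5.50 and 5.59 on the same 2 arrays. Ifit3 differed by −0.51 in SAMP8 minus Control and −0.12 in Random antisense minus SAMP8, Ifit1 by 0.78 in AβPP antisense minus Random antisense and −0.48 in Random antisense minus SAMP8, Irf1 by 0.45 in AβPP antisense minus Random antisense and 0.46 in AβPP antisense minus SAMP8, and Tap2 by 0.28 in the last. Without AβPP antisense 2, Ifit1 was 0.39 in AβPP antisense minus Random antisense, and without SAMP8 2 it was −0.14 in Random antisense minus SAMP8. Without AβPP antisense 4, Irf1 was 0.28 and 0.30 in the comparisons with Random antisense and SAMP8, and Tap2 was 0.17 in AβPP antisense minus SAMP8.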

How the data were processed

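Per the labels, the hippocampus of 1 mouse gave 4 µg of total RNA, which was made into biotinylated cRNA for each of 16 Affymetrix arrays. The deposited log2 values were made by the authors with GCRMA, which corrects background, normalizes and summarises probe sets, per the submitters' processing notes. The sources used here do not give its version. Background correction and normalization were not repeated from intensities, and signal near background is compressed.

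Of 45101 probe sets, 64 controls were removed and 23905 passed the filter of over 4 log2 on at least 4 arrays. Genes came from GEO's annotation of the platform, and 0 member symbols differed from current names. Groups were set from sample titles. limma 3.58.1 in R 4.3.3 fitted a one-way layout of 4 groups with 12 residual and 2.63 prior degrees of freedom, and p values were adjusted by Benjamini-Hochberg over all tested probe sets at a threshold of 0.05. Called and counted shares of all genes use 1 probe set per gene. The exact permutation test is two-sided and covers 70 assignments of arrays. The script was tested on simulated data. Alternatives left out arrays, changed the filter, the scaling, the weights or the variance model, added a replicate block or the beta-actin signal, moved Random antisense 1, or averaged probe sets; leaving out arrays for the partner genes and lists was added after seeing the data.

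Members and gene lists were chosen with earlier results of these data known. The naming rule took called members, members without overlap in AβPP antisense against Random antisense or SAMP8 against Control, the largest difference per role, the catalytic subunits, Psme1 and Psme2, members with discordant probe sets, and the 2 partner genes of smallest p per comparison; other genes, among them those without overlap elsewhere, those standing apart on single arrays, Nfe2l1, Irf9 and H2-D1, were named after their values were seen. Replicate numbers recur across groups, and deviations of same-numbered arrays correlated between −0.27 and 0.24, with no comparison over 0.1 in all 4 pairs, so the numbers were not taken as pairs. The number of arrays limits the precision.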

Additional observations from a re-analysis of the deposited data

Results flagged for a closer look

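Over 188 groups of 4 arrays, 1 per gene and group, 23 held a highest or lowest array whose gap to its nearest neighbour, as a share of the group's range, exceeded Dixon's critical value for 4 values. Chance gives about 1 in 20 groups. The causes were not tested.

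Control 4 accounted for 11 of the 23. It was high for the alpha subunits Psma1 (12.42 log2), Psma4 (12.28), Psma5 (11.93) and Psma7 (11.77), for the beta subunits Psmb2 (10.52) and Psmb8 (11.85), for the lid deubiquitinase Psmd14 (11.87), for the activators Psme1 (11.67) and Psme4 (10.08), and for the chaperone Psmg1 (9.59). It was low for the ATPase Psmc5 (12.15). On the other 3 Control arrays the constitutive subunits among these spread by little, as with Psma4 at 10.98 to 11.13.

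AβPP antisense 1 was high for Psma2 (12.05) and Psmb1 (12.13), and AβPP antisense 4 was high for Psmb4 (14.04) and low for Psmb7 (11.67). Random antisense 1 was low for Psmc1 (11.54) and Psmg3 (6.49), and Random antisense 4 was low for Psmb7 (12.04) and high for Psmc3ip (5.69). SAMP8 2 was high for Psme4 (9.43) and low for Psmd13 (9.91), SAMP8 4 was high for Psmd2 (11.65), and Control 2 was low for Psmd10 (8.54). Several of these gaps were small in size, since arrays of a group lay close together.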

How the results depend on the processing

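Under 11 alternatives and with each of the 16 arrays left out in turn, 0 members were called in every comparison, with 1 exception. Leaving out 1 array gave 0 to 1 in AβPP antisense minus SAMP8, the 1 being Psmg2 without AβPP antisense 3. In that setting 1286 of all 23905 tested probe sets were called in this comparison, against 69 with all arrays. The replicate block called 0 members and left each median difference as it was. The median was 0.11 in AβPP antisense minus Random antisense (0.07 to 0.15 with 1 array left out), −0.08 in SAMP8 minus Control (−0.10 to −0.00), −0.12 in Random antisense minus SAMP8 (−0.17 to −0.11) and 0.00 in AβPP antisense minus SAMP8 (−0.05 to 0.05). Array weights gave a median of 0.00 in SAMP8 minus Control, and counting Random antisense 1 as untreated SAMP8 gave −0.06 in Random antisense minus SAMP8. Of 5060 single differences under the alternatives, 210 had another sign. In AβPP antisense minus Random antisense the beta-actin signal as a covariate turned the sign of 14 members, and in SAMP8 minus Control leaving out Control 4 turned that of 15. The cause was not tested. The mean over all tested probe sets of a gene gave a median of 0.05 in AβPP antisense minus Random antisense, with 21 members negative. Psmb9, Psmg4 and other members near the filter level of 4 log2 have little signal over background.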
